A study of Mus musculus with 4 samples.

Results

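CD4+ T cells lacking Cbl-b were compared with wild-type (WT) CD4+ T cells after both had been stimulated with an antibody to CD3. The comparison takes 2 of the 4 small RNA libraries of the series, chosen by their source names, and uses all 1091 mature microRNAs (miRNAs) listed for them. WT and Cbl-b-/- C57BL/6 mice gave the CD4+ T cells, which were cultured in RPMI medium with serum and stimulated by anti-CD3 for 48 h. The other pair of libraries holds unstimulated cells of the same genotypes, called naive in the labels, and is given beside the values where it helps. Each group is 1 library. The sources used here give neither the making of the Cblb allele, the age and number of mice, any pooling of cells nor any costimulation. Cblb mRNA was not analysed here.

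Cbl-b attaches ubiquitin to signalling proteins and so dampens the response to the T cell receptor (TCR), and T cells without it respond to TCR signals with less need for costimulation. A miRNA is cut from a hairpin RNA, whose 5p and 3p arms can each become a mature miRNA. Usually 1 arm is loaded onto Argonaute proteins far more often, and its bases 2 to 8, the seed, pair with the mRNAs that it represses. T cells activated through the TCR are known to make more miR-155, miR-21a, miR-31 and miR-210 and less of several miRNAs of resting cells.

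The stimulated WT library held 13074598 counted miRNA reads and the stimulated Cbl-b-/- library 11561693. Levels are counts per 1000000 counted reads of a library (CPM), and ratios are Cbl-b-/- over WT on the log2 scale. Ratios carry 95% exact Clopper-Pearson intervals. These cover counting error only, and PCR copies of a read are not independent molecules. With 1 library a side there is no replicate check and no p-value, so every difference below is between 2 libraries. A miRNA was counted as higher or lower when it differed at least 2-fold, had a mean of at least 50 CPM and had an interval that excluded 0, called the rule of size below. Values of near-identical miRNAs, such as miR-99a and miR-100, whose 5p arms are 1 base apart, are uncertain, because how reads were divided between them is not stated.

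Blood cell and lymphocyte miRNAs were abundant in both libraries, which fits the T cell label but cannot tell CD4+ T cells from other lymphocytes. miR-142a-5p, made throughout the blood lineages, stood at 121285 (WT) and 104582 CPM (Cbl-b-/-), and miR-150-5p, of mature lymphocytes, at 20371 and 20197 CPM. Summed levels of the lists of other cell types were far lower. They came to 390 (WT) and 916 CPM (Cbl-b-/-) for 7 erythroid miRNAs, 83.4 and 69.4 for 2 myeloid, 334 and 324 for 3 endothelial and megakaryocyte, 47.4 and 52.2 for 8 stromal, and 563 and 548 for 8 epithelial miRNAs. The single muscle miRNA listed had 3 reads in WT, which is the floor, and 2 in Cbl-b-/- cells.

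Mature sequences from RefSeq (GRCm38.p6) matched 905 of the 1091 names. The sequences shown first are those of 9 miRNAs past the rule of size and of miR-22-3p and miR-221-3p, the partners of 2 of them, 5′ to 3′, with the seed in capitals, because the seed decides which mRNAs each can pair with. None of these shares its seed with another of them except miR-221-3p and miR-222-3p.
miR-155-5p: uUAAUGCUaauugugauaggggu
miR-155-3p: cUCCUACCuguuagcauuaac
miR-31-5p: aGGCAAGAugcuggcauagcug
miR-31-3p: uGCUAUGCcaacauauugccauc
miR-22-5p: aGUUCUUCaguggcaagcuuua
miR-22-3p: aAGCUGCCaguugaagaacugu
miR-222-3p: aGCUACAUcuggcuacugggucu
miR-221-3p: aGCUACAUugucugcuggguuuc
miR-127-3p: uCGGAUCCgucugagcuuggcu
miR-451a: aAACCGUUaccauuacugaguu
miR-6240: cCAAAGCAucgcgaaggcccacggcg

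The hairpins of the 3 miRNAs at the centre of the comparison are shown with their mature arms in capitals. The miR-155 hairpin is part of an exon of Mir155hg (GRCm38.p6 chr16:84714140-84714204, plus strand), the miR-31 hairpin of an exon of the transcript AL805899.1 (chr4:88910557-88910662, minus strand) and the miR-22 hairpin of an exon of Mir22hg (chr11:75463716-75463810, plus strand), which there also overlaps an exon of Tlcd2. Both arms are cut from each hairpin.
Mir155: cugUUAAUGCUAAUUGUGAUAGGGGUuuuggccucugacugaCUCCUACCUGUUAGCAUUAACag
Mir31: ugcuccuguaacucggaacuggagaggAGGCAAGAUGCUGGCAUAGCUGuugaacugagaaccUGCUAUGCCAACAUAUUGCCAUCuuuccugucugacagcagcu
Mir22: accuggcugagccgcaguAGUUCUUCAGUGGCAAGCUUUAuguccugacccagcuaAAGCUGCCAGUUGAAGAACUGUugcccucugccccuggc

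Differences between the stimulated libraries ran mainly 1 way. In Cbl-b-/- cells 12 miRNAs (5.22% of the 230 that reached 50 CPM) were higher and 0 (0%) lower. The members just inside the 2-fold limit were miR-222-3p and miR-155-5p, each at log2 1.03, and the member just outside it was miR-221-3p (0.88). At a limit of 1.5-fold, 22 (9.57%) were higher and 4 (1.74%) lower. With the minimum lowered to 10 CPM, 21 of 341 (6.16%) were higher and 2 (0.587%) lower. The middle of the distribution hardly moved: the median log2 ratio of the 341 was -0.05, with 148 above 0 and 193 below. The spread depended on level. The robust SD of log2 ratios was 0.34 over the 111 miRNAs at 10 to 50 CPM, 0.29 over the 146 at 50 to 500 CPM, 0.16 over the 56 at 500 to 5000 CPM and 0.21 over the 28 above that.

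**Figure D1:**
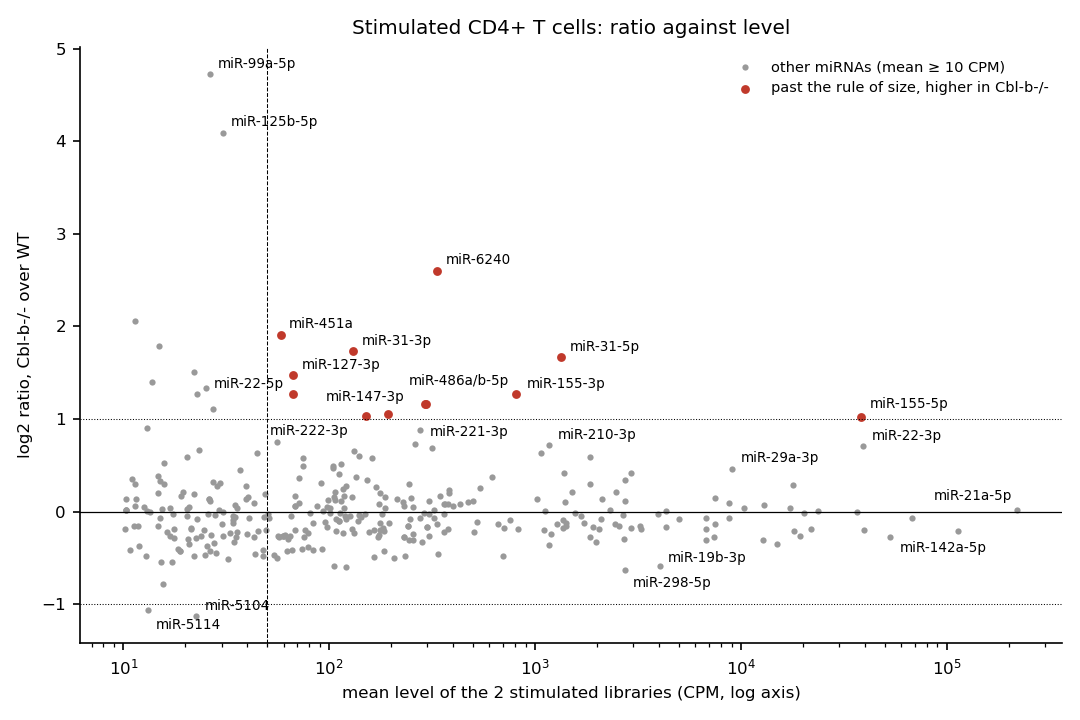
The log2 ratio of Cbl-b-/- over WT (vertical) is plotted against the mean level of the 2 stimulated libraries in CPM (horizontal, log axis) for 341 miRNAs, each a point. Red points are the 12 past the rule of size, all above 0; dotted lines mark 2-fold either way and the dashed line 50 CPM.

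miR-155 was the abundant miRNA with the highest ratio. Its 5p arm, the main product, represses brakes of cytokine and phosphoinositide signalling and is needed for full T cell responses. It was read 331269 times in WT and 596830 times in Cbl-b-/- cells, which is 25337 and 51621 CPM (2.04-fold, log2 1.03, interval 1.02 to 1.03). Unstimulated cells held 2246 CPM (WT) and 3112 CPM (Cbl-b-/-), so both stimulated libraries stood above both unstimulated ones. The 3p arm stood at 472 and 1141 CPM (log2 1.27, 1.23 to 1.32), against 15.7 and 17.5 CPM without stimulation. Its share of the reads of both arms was 1.83% in WT (interval 1.79 to 1.88) and 2.16% in Cbl-b-/- cells (2.13 to 2.20), so the minor arm was higher by more than the main arm, beyond counting error.

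miR-31, which T cells make after activation, had the highest ratios among the TCR-induced miRNAs. miR-31-5p stood at 641 (WT) and 2032 CPM (Cbl-b-/-) (3.17-fold, log2 1.67). Its 3p arm stood at 60.4 CPM and 201 CPM (log2 1.74, 1.62 to 1.85). Unstimulated levels were 51.8 and 77.8 CPM for the 5p arm and 2.40 and 3.78 CPM for the 3p arm. Here the arms kept their proportion. The 3p share was 8.62% (8.05 to 9.21) in WT and 9.02% (8.67 to 9.37) in Cbl-b-/- cells, and these intervals overlap.

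miR-22, a broadly expressed miRNA, differed more in its minor arm. Its main arm, miR-22-3p, was among the most abundant miRNAs at 29706 (WT) and 48576 CPM (Cbl-b-/-) (1.64-fold, log2 0.71, 0.70 to 0.72), below the 2-fold limit. The minor arm, miR-22-5p, passed it at 39.1 and 94.3 CPM (2.41-fold, log2 1.27, 1.12 to 1.42). The 5p share was 0.131% (0.120 to 0.143) in WT and 0.194% (0.182 to 0.206) in Cbl-b-/- cells. In unstimulated cells miR-22-3p stood at 15633 and 16541 CPM (log2 0.08), so a difference of this size was seen in the stimulated pair and not in the other; the difference between the states was not tested.

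miR-221 and miR-222, X-linked neighbours known for promoting proliferation by repressing the cell cycle inhibitor p27, were higher together. miR-222-3p stood at 99.0 (WT) and 202 CPM (Cbl-b-/-) (log2 1.03, 0.93 to 1.13) and miR-221-3p at 193 and 357 CPM (log2 0.88, 0.81 to 0.95). The minor arms were scarce but lay the same way, miR-221-5p at 17.3 and 37.4 CPM (log2 1.11, 0.88 to 1.35) and miR-222-5p with 25 and 58 reads (log2 1.39, 0.69 to 2.13). As the 3p arms share the seed GCUACAU, their counts were also summed, giving 292 and 559 CPM (log2 0.93, 0.88 to 0.99). Unstimulated levels were 224 (WT) and 261 CPM (Cbl-b-/-) for miR-221-3p and 81.3 and 83.2 CPM for miR-222-3p. In WT cells miR-221-3p was thus lower with stimulation than without.

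miR-147-3p, known from macrophages as a miRNA induced by Toll-like receptor signals, stood at 125 (WT) and 260.2 CPM (Cbl-b-/-) (log2 1.06, 0.97 to 1.14). Without stimulation it was near 0, at 3.43 and 3.71 CPM. Its 5p arm had 70 and 153 reads (log2 1.31, 0.89 to 1.73) and 0 reads in both unstimulated libraries. miR-210-3p, which hypoxia-inducible factor induces, was below the 2-fold limit at 889 and 1460 CPM (log2 0.72, 0.68 to 0.75), and miR-210-5p at 94.1 and 134 CPM (log2 0.51).

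**Figure D2:**
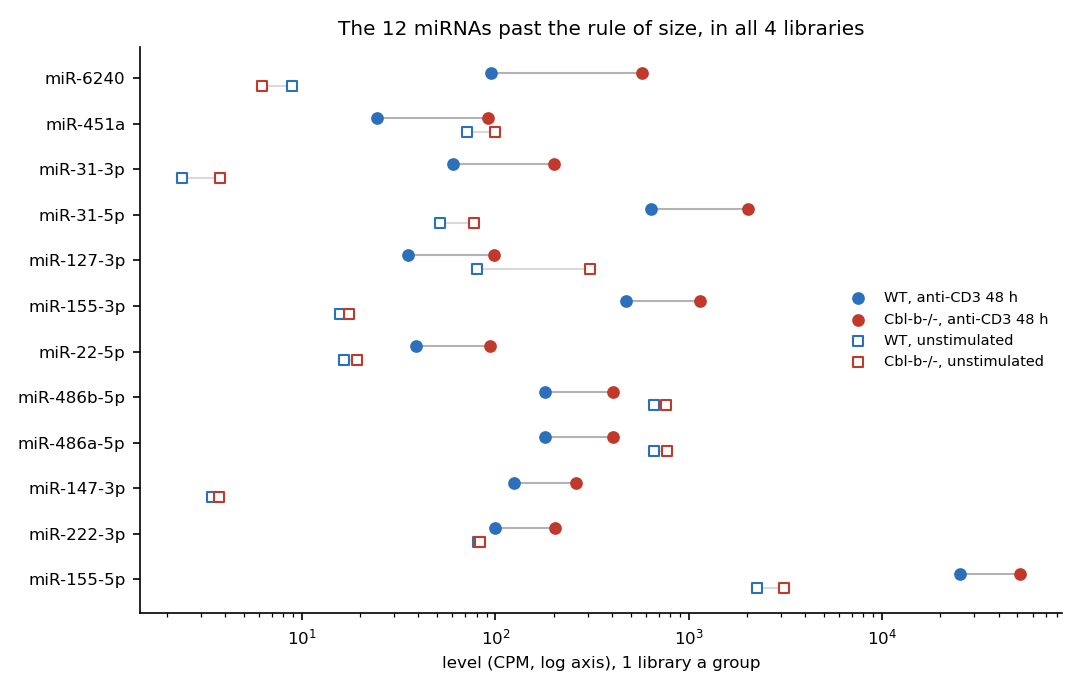
Levels in CPM (log axis) of the 12 miRNAs past the rule of size, by library: WT in blue, Cbl-b-/- in red, filled circles for anti-CD3 48 h and open squares for unstimulated cells, 1 library each. In the stimulated pair the Cbl-b-/- library is higher in all 12; in the unstimulated pair it is higher in 11, and lower for miR-6240.

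The remaining members of the 12, like miR-22-5p and miR-147-3p, were not in the list of TCR-induced miRNAs given below. miR-451a, which makes up much of the miRNA of red blood cells and is cut by Argonaute 2 in place of Dicer, had 319 reads in WT and 1061 in Cbl-b-/- cells, or 24.4 and 91.8 CPM (log2 1.91, 1.73 to 2.10). miR-486a-5p and miR-486b-5p, erythroid miRNAs with nearly equal counts in each library, stood at 182 and 406 CPM and at 180.4 and 405 CPM (log2 1.16 and 1.17). Whether the same reads were counted under both names is not stated. If they were, 2 of the 12 are 1 product, and it enters the summed erythroid level 2 times. In the rest of the erythroid list miR-144-3p had 29 and 96 reads (log2 1.90, 1.29 to 2.56) and miR-144-5p 18 and 50 (log2 1.65, 0.85 to 2.52), while miR-486a-3p and miR-486b-3p had 0 reads in WT and 4 and 0 in Cbl-b-/- cells. The summed erythroid level of 390 and 916 CPM lay under the 1409 and 1653 CPM of the unstimulated pair. Its part in the other differences was not tested.

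miR-6240 had the highest ratio of the 12, with 1238 reads in WT and 6647 in Cbl-b-/- cells, or 94.7 and 575 CPM (6.07-fold, log2 2.60, 2.51 to 2.69). Its hairpin (chr5:114851948-114852064) overlaps no other gene in GENCODE M21. That does not show where its reads come from. Whether they come from this hairpin or from like sequences elsewhere, such as repeats or ribosomal RNA, was not tested. miR-6240 shares the seed CAAAGCA with miR-330-3p, and the pair summed to 115 and 598 CPM (log2 2.38). Other miRNAs with high ratios and lower levels were miR-2137 (11.4 and 32.4 CPM, log2 1.51), miR-5126 (6.73 and 23.2 CPM, 1.78) and miR-1948-3p (13.4 and 32.2 CPM, 1.27). miR-5126 and miR-2137 are shown because G and C make up most of their sequence.
miR-5126: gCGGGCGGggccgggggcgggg
miR-2137: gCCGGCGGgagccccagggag

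miR-127-3p comes from the imprinted Dlk1-Dio3 region, which holds a large array of miRNAs expressed from the maternal chromosome. It was read 462 times in WT and 1136 times in Cbl-b-/- cells, or 35.3 and 98.3 CPM (log2 1.48, 1.32 to 1.63). Its hairpin (chr12:109592846-109592915, plus strand) lies opposite an exon of Rtl1. Of 63 mature miRNAs listed for the region, 58 had a read in either library, and for 16 of these the interval lay above 0, for 0 below. Of all 1057 miRNAs with a read, 155 (14.7%) had an interval above 0 and 172 (16.3%) below. The summed level of the 63 was 87.3 CPM (1142 reads) in WT and 236 CPM (2730 reads) in Cbl-b-/- cells, a log2 ratio of 1.43. The unstimulated pair had 162 and 627 CPM, so the region was higher in Cbl-b-/- cells in both states and lower in stimulated than in unstimulated cells of each genotype. Named members below the level minimum were miR-434-3p (58 and 213 reads, log2 2.05), miR-541-5p (187 and 417, 1.33) and miR-411-5p (99 and 231, 1.40).

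The highest ratios of all belonged to miR-99a and miR-125b, whose 5p arms had means of 26.3 and 30.4 CPM, below the level minimum. Both are produced from the noncoding gene Mir99ahg, miR-125b-5p also from a second locus, and they are best known from stem and myeloid cells. miR-99a-5p had 25 reads in WT and 585 in Cbl-b-/- cells, or 1.91 and 50.6 CPM (26.5-fold, log2 4.73, 4.15 to 5.37). miR-125b-5p had 44 and 664 reads, or 3.37 and 57.4 CPM (17.1-fold, log2 4.09, 3.65 to 4.57). Minor arms of the same locus lay the same way, with miR-125b-2-3p at 7 and 198 reads (log2 5.00, 3.93 to 6.33) and miR-99a-3p at 2 and 48 (log2 4.76, 2.83 to 7.85). From the paralogous cluster, miR-100-5p had 18 and 22 reads (log2 0.47, -0.50 to 1.45). miR-125b-1-3p had 1 and 3 reads, with an interval of -1.88 to 7.48 that covers both 0 and the ratios above. The unstimulated ratios were 4.03 for miR-99a-5p and 4.01 for miR-125b-5p. The mature sequences show how closely the paralogs resemble each other, with the seed in capitals.
miR-99a-5p: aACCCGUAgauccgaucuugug
miR-99b-5p: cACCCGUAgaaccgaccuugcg
miR-125b-5p: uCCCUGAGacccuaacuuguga
miR-125a-5p: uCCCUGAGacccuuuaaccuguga

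The cluster of miR-99b, let-7e and miR-125a carries the same seeds at higher levels and was higher by less. miR-99b-5p stood at 195 (WT) and 324 CPM (Cbl-b-/-) (log2 0.73), let-7e-5p at 87.0 and 122 CPM (0.49) and miR-125a-5p at 241 and 389 CPM (0.69). Summed by seed, the ACCCGUA family came to 199 and 376 CPM (log2 0.92, 0.85 to 0.99) and the CCCUGAG family to 390 and 586 CPM (0.59, 0.54 to 0.64).

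At the lower end no miRNA over 50 CPM reached 2-fold. The lowest ratio was that of miR-298-5p, a miRNA of the imprinted Gnas region, at 3316 (WT) and 2137 CPM (Cbl-b-/-) (log2 -0.63, -0.66 to -0.61), while it was alike without stimulation, at 78.8 and 80.4 CPM. miR-19b-3p stood at 4836 and 3211 CPM (log2 -0.59, -0.61 to -0.57), and its seed partner miR-19a-3p at 815 and 586 CPM (-0.48). miR-19b-3p is made from 2 loci, 1 of them in the miR-17-92 cluster, so its reads cannot be assigned to either. Summed, their GUGCAAA family had the lowest ratio of the 47 seed families with more than 1 member, at 5651 and 3797 CPM (log2 -0.57, -0.59 to -0.56). The unstimulated pair gave a ratio of -0.57 for this family as well. The 2 sequences differ in a single base.
miR-19a-3p: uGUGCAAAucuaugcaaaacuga
miR-19b-3p: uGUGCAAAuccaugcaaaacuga

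Others among the 10 lowest were miR-98-3p (145 and 95.9 CPM, log2 -0.59), miR-6539 (127 and 84.1 CPM, -0.59), miR-148b-5p (242 and 170.2 CPM, -0.51), miR-669b-5p (-0.50), miR-181c-3p (-0.49), miR-342-5p (-0.48) and miR-200b-3p (-0.47). Both arms of miR-148a and of miR-148b were lower, miR-148a-3p, which restrains the death protein Bim in T helper cells, standing at 7485 (WT) and 6061 CPM (Cbl-b-/-) (log2 -0.30). Below 50 CPM, miR-5104 (31.1 and 14.2 CPM, log2 -1.13, -1.40 to -0.87) and miR-5114 (17.7 and 8.48 CPM, -1.07, -1.42 to -0.72) were more than 2-fold lower, and miR-26a-2-3p (-0.78), miR-20b-3p (-0.54) and miR-669f-5p (-0.54) followed.

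In terms of reads, the difference was concentrated in a few miRNAs. Scaling to a fixed total makes gains equal losses, and each came to 67999 CPM, or 6.80% of the reads. miR-155-5p made up 38.7% of the gains (26284 CPM) and miR-22-3p 27.8% (18870 CPM), together 66.4%. miR-182-5p (3540 CPM) and miR-29a-3p (2892 CPM) came next. On the other side miR-142a-5p made up 24.6% of the losses, and with miR-191-5p, miR-16-5p and miR-186-5p 52.8%, although their log2 ratios were only -0.21, -0.28, -0.20 and -0.35. miR-21a-5p, the most abundant miRNA, took 219041 (WT) and 221297 CPM (Cbl-b-/-) (log2 0.01).

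Among the miRNA lists, the TCR-induced list had the highest median of those with all members at 10 CPM or more. All 14 of its members were above 0, against 148 of all 341 miRNAs at that level. The list median was a log2 ratio of 0.53 against -0.05 over all 341. Past the rule were 5 members, namely both arms of miR-155, both of miR-31, and miR-222-3p, against 12 (5.22%) of the 230 miRNAs at 50 CPM. The 14 do not come from 14 separate loci. The list holds both arms of miR-155, miR-31 and miR-21a. It also holds the neighbours miR-132 and miR-212, miR-182, miR-183 and miR-96, and miR-221 and miR-222. The name of the list does not hold for every member here. In WT cells miR-221-3p stood at 224 CPM without and 193 CPM with stimulation, and miR-222-3p at 81.3 and 99.0 CPM. The other members of the list were higher in WT cells with stimulation. With DESeq2 size factors or the authors' totals, 13 of 14 lay above 0. The list was drawn up with earlier results of these data known, so its direction is not independent evidence. Beyond miR-155, miR-31, miR-221, miR-222 and miR-210 its ratios were small: miR-183-5p had 0.34, miR-182-5p 0.29, miR-96-5p 0.24, miR-212-3p 0.20, miR-21a-3p 0.14, miR-132-3p 0.14 and miR-21a-5p 0.01. The last turned to -0.02 with DESeq2 size factors. miR-132 and miR-212 are known targets of CREB.

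The 13 miRNAs of the resting T cell list all lay below 0 by little, with a median of -0.19, a range of -0.48 (miR-342-5p) to -0.01 (miR-150-5p) and 0 past the rule. Of all 341 miRNAs at 10 CPM or more, 193 lay below 0. With TMM factors 11 of 13 lay below 0. The larger members of this list were miR-26a-5p at 19526 (WT) and 16850 CPM (Cbl-b-/-) (log2 -0.21), miR-342-3p (-0.19) and miR-101a-3p (-0.30). Its name does not hold for every member here. In WT cells miR-342-5p stood at 67.2 CPM without and 273 CPM with stimulation. miR-101b-3p, miR-342-3p and miR-151-3p were also higher with stimulation in WT cells, and the other members were lower. The miR-17-92 list and its paralogs had a median of -0.18, with 10 of 13 below 0 (9 under TMM scaling, 11 under that of DESeq2). In it miR-92a-3p, the most abundant, hardly differed (-0.01), and miR-18a-5p was highest (0.22). Medians were -0.15 for miR-30, -0.12 for miR-15-16, -0.06 for miR-181, 0.07 for let-7, 0.12 for miR-23-27-24 and 0.30 for the NF-kB feedback and regulatory T cell list, in which miR-146a-5p stood at 1650 and 2034 CPM (0.30). None of these lists had a member past the rule. They too were drawn up with earlier results of these data known, so their directions are not independent evidence.

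**Figure D3:**
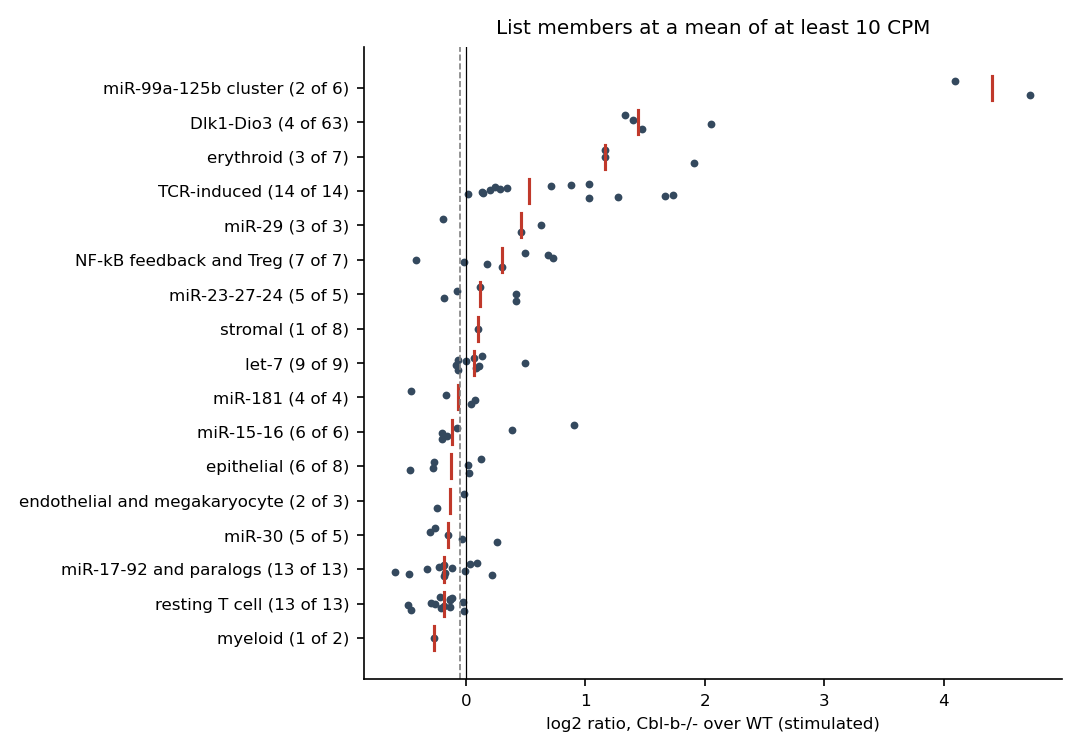
Each point is the log2 ratio of Cbl-b-/- over WT of a list member with a mean of at least 10 CPM in stimulated cells; red bars are list medians, the dashed line is the median of all 341 miRNAs, and brackets give members plotted of members listed. The TCR-induced members spread from 0.01 to 1.74, and the 13 resting T cell members lie between -0.48 and -0.01.

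The paralogous clusters of miR-23, miR-27 and miR-24 lay on opposite sides of 0. The cluster of miR-23a, miR-27a and miR-24-2 was higher in Cbl-b-/- cells, with miR-23a-3p at 1178 and 1578 CPM (log2 0.42), miR-27a-3p at 2497 and 3344 CPM (0.42) and miR-24-2-5p at 539 and 698 CPM (0.37). Its paralog of miR-23b, miR-27b and miR-24-1 was lower, with miR-23b-3p at 2175 and 1915 CPM (-0.18), miR-27b-3p at 69037 and 65709 CPM (-0.07) and miR-24-1-5p at 75.2 and 56.6 CPM (-0.41). miR-27b-3p was so abundant that the summed UCACAGU seed family of miR-27a and miR-27b had a log2 ratio of -0.05. The mature miR-27 sequences are 1 base apart.
miR-27a-3p: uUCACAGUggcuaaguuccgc
miR-27b-3p: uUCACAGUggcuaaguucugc

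The miR-29 family, which represses T-bet and collagen mRNAs, differed between members. miR-29a-3p stood at 7613 (WT) and 10505 CPM (Cbl-b-/-) (log2 0.46, 0.45 to 0.48) and miR-29b-3p at 836 and 1293 CPM (0.63). miR-29b-3p is made from 2 loci, 1 beside miR-29a and 1 beside miR-29c, so its reads cannot be assigned to either. Minor arms of the miR-29a locus, miR-29a-5p (129 and 192 CPM, 0.58) and miR-29b-1-5p (18.1 and 28.5 CPM, 0.66), were higher as well. miR-29c-3p was lower, at 188 and 164 CPM (-0.19). The AGCACCA family as a whole stood at 8637 and 11963 CPM (log2 0.47, 0.46 to 0.48), against 0.02 in the unstimulated pair.
miR-29a-3p: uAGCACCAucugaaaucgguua
miR-29b-3p: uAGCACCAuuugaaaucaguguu
miR-29c-3p: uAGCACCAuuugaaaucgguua

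Hairpins within 10 kb of each other on 1 strand were grouped into clusters. Of 25 such clusters with at least 2 measured hairpins, 10 had every member above 0, 6 every member below 0 and 9 members on both sides. Of all 341 miRNAs at 10 CPM or more, 148 lay above 0 and 193 below, so unrelated miRNAs can also share a side. How many groups of unrelated miRNAs would do so was not counted. Both arms of a hairpin count as members here. In addition, let-7a-1-3p and let-7c-2-3p, which have the same counts, enter separate clusters. The X-linked cluster in the Clcn5 gene lay wholly above 0. Its 8 measured miRNAs ran from 0.20 (miR-188-3p) to 0.52 (miR-501-5p), and miR-532-5p, which had no RefSeq entry to place it, stood at 1473 (WT) and 2211 CPM (Cbl-b-/-) (0.59). In the unstimulated pair the median of the same 8 was -0.11. The cluster of miR-182, miR-96 and miR-183 had all 5 of its measured miRNAs above 0 (0.11 to 0.49), and the X-linked miR-106a to miR-363 cluster had all 6 below 0 (-0.54 to -0.12). Of the 9 measured products of the miR-17-92 cluster itself, 8 lay below 0.

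**Figure D4:**
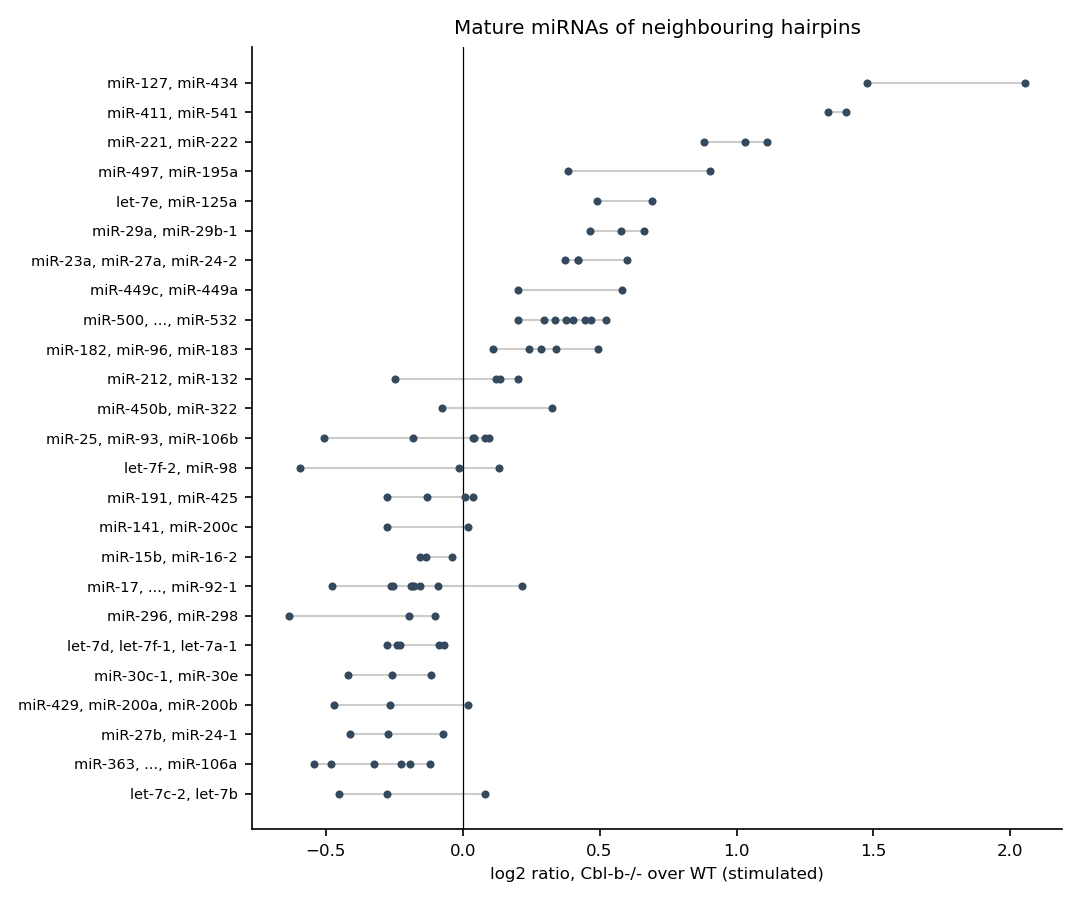
Each row is a group of neighbouring hairpins (within 10 kb on 1 strand) and each point the log2 ratio of Cbl-b-/- over WT of 1 of its mature miRNAs at a mean of at least 10 CPM in stimulated cells; grey lines join lowest and highest. Of the 25 rows, 10 lie wholly above 0 and 6 wholly below.

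Both arms could be followed for 90 hairpins. They lay on the same side of 0 for 67, with 22 pairs above and 45 below, and the arms differed by a median of 0.18 (log2), 86 of 90 by less than 0.5. Of all 341 miRNAs at that level, 148 lay above 0 and 193 below. Not all 90 are separate measurements. The 3p counts are the same for miR-466c and miR-466p, miR-467a and miR-467d, miR-297a and miR-297b, and miR-669a and miR-669o. Across the 90 pairs Pearson's r between the arms' ratios was 0.776 and Spearman's rho 0.460; arms of a hairpin share the transcript and the libraries, and r was 0.659 over the 88 pairs whose main arm differed less than 2-fold. Beside miR-22, the largest gaps were those of miR-98 (5p 0.13, 3p -0.59), miR-93 (0.04 and -0.51) and let-7b (0.08 and -0.45). The let-7 guide arms, with the seed GAGGUAG, summed to 58004 (WT) and 58201 CPM (Cbl-b-/-) (log2 0.00), whereas the 5 passenger arms with the seed UAUACAA summed to 825 and 658 CPM (-0.33, -0.37 to -0.28). Of these 5, let-7a-1-3p and let-7c-2-3p have the same counts. If the same reads were counted under both names, they enter the sum 2 times and its interval is too narrow. Passenger arms with other seeds were not all lower, and let-7i-3p stood at 0.05.

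**Figure D5:**
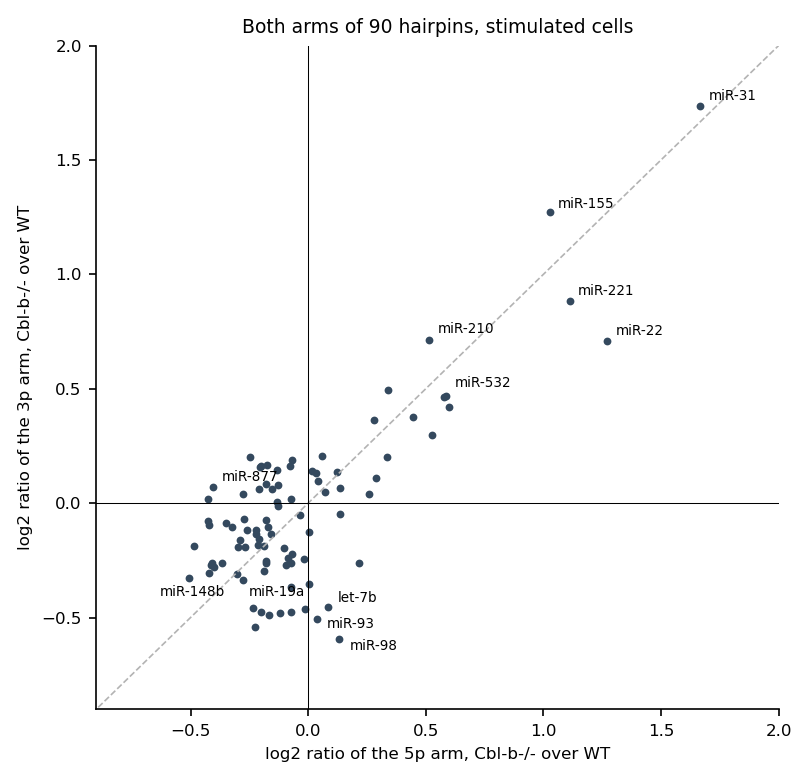
The log2 ratio of Cbl-b-/- over WT of the 5p arm (horizontal) and the 3p arm (vertical) of 90 hairpins with both arms at a mean of at least 10 CPM in stimulated cells, 1 point a hairpin; the dashed line marks equal ratios. miR-31, miR-155, miR-221 and miR-22 stand apart at the upper right.

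miRNAs were also grouped by seed. Of 139 seed families with a mean of at least 50 CPM, 8 were past the rule and higher and 0 lower, and 1 of the 8, that of miR-6240 and miR-330-3p, had more than 1 member. Of the 12 miRNAs past the rule, 3 had no RefSeq sequence and entered no family, namely miR-147-3p and both miR-486 names, and miR-222-3p was below the limit once summed with miR-221-3p. The families of 2 or more members ran from -0.57 to 2.38 with a median of -0.01. Over the 187 matched miRNAs at 50 CPM or more, the Pearson r of the log2 ratio was 0.110 with the share of G and C, 0.105 with length and -0.092 with the log2 level. These points share the same libraries.

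Set beside the unstimulated pair, 11 of the 12 miRNAs were also above 0 there, 7 of them with an interval above 0, but by less than 2-fold for all except miR-127-3p, with ratios from -0.52 (miR-6240) to 1.94 (miR-127-3p). The intervals of miR-155-3p, miR-22-5p, miR-147-3p and miR-222-3p included 0. Among all 307 miRNAs that reached 10 CPM there, 145 (47.2%) were above 0. The share of all miRNAs with an interval above 0 was not counted for that pair, so whether 7 is many cannot be judged. The 7 include both miR-486 names and both arms of miR-31. In that pair 3 of 197 miRNAs (1.52%) were past the rule and higher and 0 (0%) lower. Of the 12, 3 had a mean under 10 CPM without stimulation and so are outside those 307, namely miR-6240, miR-31-3p and miR-147-3p. The stimulated and unstimulated pairs share no library.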

How the data were processed

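Small RNA libraries were prepared, per the labels' protocols, from total RNA with reagents of New England Biolabs, with 1 library for each of 4 groups. The authors deposited, per the file headers, raw read counts for each of 1091 mature miRNAs and library. The deposited tables also hold the authors' normalized read count, a score that is the count times a constant for each library; it was used only for an alternative scaling. The deposited fold changes, p-values and calls were not used. Per the submitters' processing notes, cutadapt 1.7.1 and GRCm38.p5 are listed, with no role stated. Aligner and counter: not given in the sources used here. In all 4 libraries the same counts appeared within each of 12 sets of miRNAs.

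Counts were divided by the library's sum (CPM). Depth was 11561693 to 15436447 reads, and a floor of 3 reads is 0.229 CPM in the stimulated WT and 0.259 CPM in the stimulated Cbl-b-/- library. A count test needs replicates, so edgeR's quasi-likelihood test could not be fitted and a rule of size stands in its place, with exact Clopper-Pearson intervals (scipy 1.17.1). edgeR 4.0.16 and DESeq2 1.42.0 gave alternative scalings. The robust SD is the median absolute deviation scaled to a normal SD. Sequences are from RefSeq (GRCm38.p6) and hairpin annotation from GENCODE M21. A measured hairpin is 1 with an arm at a mean of at least 10 CPM whose name matches a single locus. Whether its sequence also occurs under another name was not checked for this.

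Named miRNAs were those past the rule, the 10 lowest at 50 CPM, the 5 highest and 5 lowest at 10 to 50 CPM, the 5 most abundant of each stimulated library, the 3 most abundant of each list, and their other arms. Members of the clusters, families and read shares named beyond these were chosen after their values were seen. The members and the 18 lists were chosen with earlier results of these data known.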

Additional observations from a re-analysis of the deposited data

Results flagged for a closer look

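For 4 miRNAs the genotype ratio pointed opposite ways in the stimulated and the unstimulated pair, with both counting intervals excluding 0 and at least 1 of the ratios past 2-fold. Each pair is 1 library a side, and the difference between the states was not tested. Of the 1057 miRNAs with a read in either stimulated library, 155 (14.7%) had an interval above 0 and 172 (16.3%) below. The same shares were not counted for the unstimulated pair, so the 4 have no expected number beside them. miR-6240 had a log2 ratio of 2.60 in stimulated cells and -0.52 in unstimulated cells, where it had 137 reads in WT and 87 in Cbl-b-/- cells. miR-221-5p, the minor arm of miR-221, had 1.11 and -0.47, on 122 and 80 reads without stimulation. miR-6539 had -0.59 and 1.07, on 21 and 40 reads without stimulation. miR-301a-5p, also a minor arm, had -0.43 and 1.01, on 29 and 53 reads without stimulation.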

How the results depend on the processing

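The other scalings (TMM factors, size factors of DESeq2, sums that leave out the 10 most abundant, totals implied by the authors' normalized counts) moved every log2 ratio of the stimulated pair by -0.04 to 0.04. The 12 higher miRNAs all passed the rule under these except with DESeq2 size factors, where 10 did and miR-155-5p and miR-222-3p came to 0.99. Counts of higher and lower miRNAs were 21 and 2 with a minimum of 10 CPM, 6 higher at 200 CPM, 60 and 19 with no minimum, 22 and 4 at a limit of 1.5-fold and 1 higher at 4-fold (miR-6240). Keeping identical rows once gave 12, but this does not join miR-486a-5p and miR-486b-5p, whose counts are nearly equal and not identical. Arms lay on the same side for 37 of the 47 pairs with both at 50 CPM. Of the list members at 10 CPM, 11 turned sign under some scaling, each from within 0.04 of 0. They were miR-101b-3p, miR-92a-3p, miR-10a-5p, let-7f-5p, miR-30b-5p, miR-126a-5p, miR-200a-3p, miR-141-3p and 3 others: miR-21a-5p (-0.0238) and miR-93-5p (-0.0021) with DESeq2 size factors, and miR-150-5p with TMM factors (0.0212) and without the 10 most abundant (0.0246); miR-21a-5p also turned with the authors' totals. The epithelial list's median turned at 50 CPM (0.0183, against -0.12), where fewer members were measured. No paired analysis was possible because each group has 1 library. Depth limits detection: 82 miRNAs had reads in the WT library only and 66 in the Cbl-b-/- library only, with at most 10 reads each, and 14 and 12 of them were above the floor of 3 reads.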
